A study of Homo sapiens with 15 samples.

Results

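The loci of PRRX1 and PRRX2, the paired-related homeobox genes, were examined for accessible chromatin in a human kidney epithelial line with and without SETD2. Their members are the 63 merged regions under ATAC-seq peaks in the gene body plus 50 kb on each side, 22 at PRRX1 and 41 at PRRX2, of 367949 merged regions in the genome. A region is a stretch where peaks of the 15 libraries shared at least 1 bp. 56 of the 63, 19 at PRRX1 and 37 at PRRX2, held a peak of at least 2 libraries, as did 295008 regions of the genome. Elements were located by their occupancy in KO, WT and rescue libraries, that is, they were selected on measured values, so these comparisons are given below as a description with no test.

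ATAC-seq, in which the Tn5 transposase places sequencing adapters into open DNA, was run on RPTEC, a renal proximal tubule epithelial line immortalized with hTERT and kept in G418. There were 3 libraries each of SETD2 wild-type cells (WT), 2 SETD2 knockout clones made with CRISPR (KO1 and KO2) and 2 rescue clones (Rescue1 and Rescue2), in which full-length SETD2 with a 3×FLAG tag was put back into KO cells by lentivirus under blasticidin selection. Every KO or rescue line is 1 clone, so KO and rescue are each represented by 2 clones and WT by 1 line. Both rescue clones carry the clone name of KO2 in the names under which the lists were deposited. Control cells for the lentivirus and the selection were not analysed here.

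SETD2 trimethylates lysine 36 of histone H3, a mark laid down over transcribed gene bodies. PRRX1 and PRRX2 encode closely related transcription factors with a paired-type homeodomain, which binds AT-rich DNA with a TAATTA core. Both are expressed in the mesenchyme of the developing limb and face, and PRRX1 is known as an inducer of epithelial-to-mesenchymal transition in carcinoma cells. The comparison asks whether open chromatin at these genes differed in SETD2 KO cells and returned with SETD2.

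The 15 lists held between 197527 (WT replicate 2) and 266011 (Rescue2 replicate 1) peaks, which covered 49.4 to 65.2 Mb. WT libraries had a mean length under peaks of 51.7 ± 3.91 Mb (SD, n = 3), against 55.9 ± 3.13 Mb for KO (SD, n = 6) and 58.3 ± 5.36 Mb for rescue (SD, n = 6). Of 14 renal epithelial markers, 10 had a peak within 500 bp of an annotated start in all 15 libraries, among them PAX8, CDH16 and EPCAM, while HNF4A had none in any library. At the canonical start alone, 8 of the 14 had a peak in all 15 libraries and 4 (HNF4A, CUBN, AQP1 and SLC34A1) in none. The leukocyte genes PTPRC and CD3E and the distal nephron genes UMOD and AQP2 had none in any library, whereas KDR, an endothelial receptor, had a peak in all 15. The start of SETD2 itself was under a peak in all 15 libraries, and peak lists do not show the edit of its coding sequence. As these are bulk cultures, more open copies in every cell and more cells with an open copy cannot be told apart.

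PRRX1 (ENSG00000116132.12, chromosome 1, 170662728 to 170739421, plus strand, hg38) had more bases under peaks in KO cells than in WT or rescue cells. Its window runs from 170612728 to 170789421 and holds, beside PRRX1, the lncRNA genes ENSG00000235303, ENSG00000271811 and ENSG00000231424. In WT libraries 2072, 1555 and 2127 bases of the window were under peaks. KO1 libraries had 3482, 3669 and 3400 bases and KO2 libraries 3535, 2990 and 3248. All 6 KO libraries lay above the WT libraries, with a gap between the highest WT and the lowest KO library. In Rescue1 1793, 1540 and 1672 bases were under peaks, and in Rescue2 1746, 1926 and 1419. All 6 rescue libraries lay below all KO libraries and overlapped with the range of WT.

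WT libraries averaged 1918 ± 316 bases (SD, n = 3), KO libraries 3387 ± 240 (SD, n = 6) and rescue libraries 1683 ± 182 (SD, n = 6), a ratio of 1.77 for KO over WT and of 0.497 for rescue over KO. Among 19207 protein-coding gene windows with a mean of at least 500 bases, the ratio of KO over WT at PRRX1 was at the 96.4th percentile (median of all windows 0.997) and that of rescue over KO at the 1.05th percentile (median 1.08). All KO libraries lay above all WT libraries in 13.2% of these windows and below them in 11.9%. All rescue libraries lay below all KO libraries in 2.55% and above them in 12.8%. Both patterns of PRRX1 together, with KO above WT and above rescue, were found in 2.04% of windows. The 2 comparisons share the KO libraries.

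PRRX2 (ENSG00000167157.11, chromosome 9, 129665647 to 129722674, plus strand) did not follow this pattern. The window from 129615647 to 129772674 also holds NTMT1, an N-terminal methyltransferase, C9orf50, ASB6, PTGES, which makes prostaglandin E, and the lncRNA genes ENSG00000234789 and PRRX2-AS1, and it had several times more bases under peaks than that of PRRX1. WT libraries had 10334, 8637 and 8646 bases under peaks. KO1 libraries had 8932, 8973 and 9196 bases and KO2 libraries 8698, 8733 and 9655. Rescue1 libraries had 9364, 8607 and 9615 bases and Rescue2 libraries 10400, 10484 and 8882. The ranges of the 3 genotypes overlapped, and the mean was 9206 ± 977 for WT (SD, n = 3), 9031 ± 355 for KO (SD, n = 6) and 9559 ± 771 for rescue (SD, n = 6). The ratio was 0.981 for KO over WT and 1.06 for rescue over KO, at the 45.0th and 40.6th percentiles of all windows. Scaling to the total length under peaks moved the median ratio of KO over WT of all windows by -0.11 on the log2 scale, to 0.922, and the share of windows with all KO below all WT to 39.5%. On that scale PRRX2 was among them, with a ratio of 0.910, while PRRX1 kept its pattern, with ratios of 1.64 and 0.476, as did 3.77% of windows. Of the windows in which KO and WT did not overlap, 52.6% were higher in KO as deposited and 22.8% when scaled. For rescue against KO 83.5% were higher in rescue as deposited and 72.1% when scaled.

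**Figure D1:**
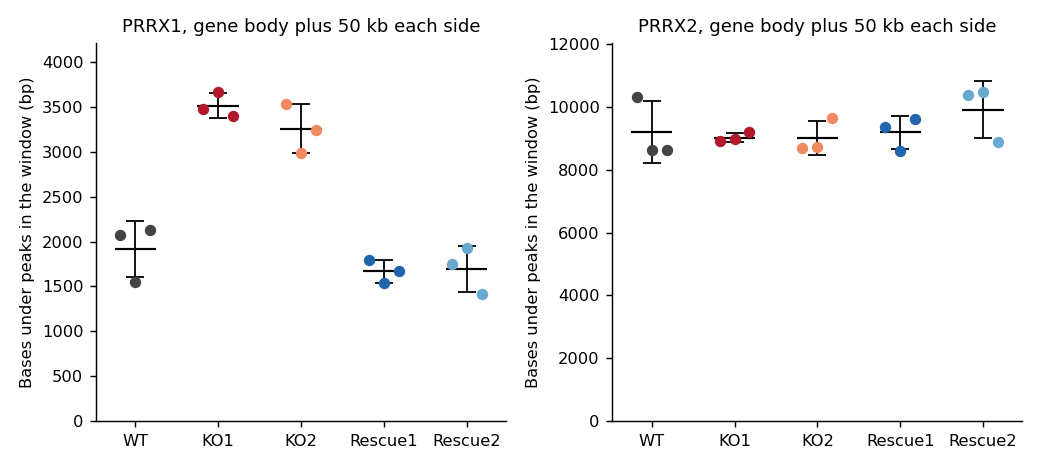
Bases under peaks (vertical axis, bp) in the PRRX1 (left) and PRRX2 (right) windows for WT, KO1, KO2, Rescue1 and Rescue2. Each point is 1 library, the horizontal line the mean and the bar ± 1 SD of 3 libraries. At PRRX1 the KO libraries sit between 2990 and 3669 and all others between 1419 and 2127, while at PRRX2 the groups overlap.

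Comparisons that the choice of elements did not use directly were tested on these totals by exact permutation of library labels, two-sided, with adjustment over the 6 tests. WT and rescue libraries both entered that choice, each against KO. KO2 differed from KO1 by -259 bases at PRRX1 (exact permutation p = 0.3, adjusted p = 0.6) and by -5 at PRRX2 (exact permutation p = 1, adjusted p = 1). The 2 rescue clones differed by 28.7 bases at PRRX1 (Rescue2 minus Rescue1, exact permutation p = 0.9, adjusted p = 1) and by 727 at PRRX2 (exact permutation p = 0.3, adjusted p = 0.6). Rescue minus WT was -235 bases at PRRX1 (exact permutation p = 0.190, adjusted p = 0.6) and 353 at PRRX2 (exact permutation p = 0.5, adjusted p = 0.75). None of these differences passed the test. Scaled to each library's total length under peaks, rescue minus WT was -460 bases at PRRX1 (exact permutation p = 0.0476, adjusted p = 0.143) and turned to -767 at PRRX2 (exact permutation p = 0.0238, adjusted p = 0.143). With 3 libraries against 3 the smallest p is 0.1 before adjustment, so the comparisons between clones could not pass. For rescue against WT it is 0.0238, which adjustment over the 6 tests raises above 0.05. No difference could therefore pass, and the results do not show that the groups are alike. The means at PRRX1 were known from earlier work on these data, and nothing in the labels says that the libraries of a line came from separate cultures, so these p-values measure only the spread between libraries.

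A region just after the canonical start of PRRX1 was open in all libraries. Region PRRX1-8 (170664209 to 170665118), which begins 78 bp after the canonical start at 170664131 and covers the rest of exon 1 (5′ UTR and coding sequence, to 170664459) and for most of its length intron 1, where its median summit lies (170664881), held a peak in 15 of 15 libraries. Its −log10 q, the caller's measure of how far a peak stands above the background of its own library, had a median of 10.1 in WT, 10.3 in KO and 11.3 in rescue libraries, with overlapping ranges. The peaks at PRRX1-8 were of middle strength, with a median rank of fold enrichment at percentile 50.01 of the library's own list in WT, 41.0 in KO and 54.5 in rescue. The first base under a peak in PRRX1-8 lay 110 to 168 bp after the canonical start in WT libraries. It lay 78 to 304 bp after that start in KO, 209 to 247 in Rescue1 and 329 to 434 in Rescue2. In Rescue2 libraries no peak thus reached exon 1. Within 500 bp of the start of transcript PRRX1-207 (170663937), all WT, KO and Rescue1 libraries held a peak and no Rescue2 library did. This difference was not tested. A start further upstream behaved otherwise. PRRX1-7 (170663023 to 170663165), at the start of transcript PRRX1-202 (170663134), held a peak in KO1 replicates 1 and 3 and KO2 replicate 2, with −log10 q of 2.57, 5.48 and 4.55, and in no WT or rescue library. These were weak peaks, at most at the 13.9th percentile of their lists.

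The window split into constant and variable elements. Of its 19 regions with at least 2 libraries, 3 held a peak in all 15, against 35.6% of such regions in the genome. The 3 regions of the PRRX1 window with a peak in all 15 libraries, PRRX1-8, PRRX1-13 and PRRX1-14, together gave WT 1183 ± 185 bases (SD, n = 3), KO 1155 ± 132 (SD, n = 6) and rescue 978 ± 89.9 (SD, n = 6). The other 19 of all 22 regions in the window gave WT 735 ± 143 bases (SD, n = 3), KO 2233 ± 127 (SD, n = 6) and rescue 705 ± 203 (SD, n = 6). Both sets were drawn by the same occupancy, so regions with peaks in KO libraries alone enter the second set by construction. How often other windows split in this way was not counted. The strongest element of the window, PRRX1-14 (170707954 to 170708319) in intron 1, 44 kb after the start, had a median rank at the 99.5th, 99.6th and 99.5th percentile in WT, KO and rescue.

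By position, the 50 kb upstream of PRRX1 gave WT 122 ± 41.0 bases (SD, n = 3), KO 1078 ± 100 (SD, n = 6) and rescue 406 ± 118 (SD, n = 6). KO libraries lay between 882 and 1167 and rescue libraries between 231 and 577, and the highest WT library had 159, so the 3 genotypes did not overlap. The gene body gave WT 1607 ± 188 bases (SD, n = 3), KO 2147 ± 121 (SD, n = 6) and rescue 1198 ± 119 (SD, n = 6), and here the rescue libraries, with at most 1363, lay below the lowest WT library at 1393. Downstream of the gene the groups overlapped. How often the same parts of other gene windows separate in these ways was not counted.

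Of the 19 PRRX1 regions with at least 2 libraries, 3 were gained in KO (a peak in all 6 KO and no WT library), against 4.79% of regions in the genome, and none was lost in KO (all 3 WT and no KO library), against 2.48%. 4 were lost in rescue (all 6 KO and no rescue library), against 1.24%, and none was gained in rescue, against 0.91%. 2 of them, PRRX1-3 and PRRX1-19, were both gained in KO and lost in rescue, against 0.818%, and none was lost in KO and gained in rescue, against 0.314%. These counts moved with the rule. With a −log10 q of at least 5, or with 150000 peaks in every library, 2 regions were lost in rescue and 1 was gained and lost, whereas by a majority rule 5 were gained and 4 gained and lost. The elements lost in rescue lay in 2 places, 23.3 kb upstream of the start and in intron 3. Their sequences, 201 bases around the median summit, are shown with PRRX1-1, the gained element that rescue cells kept, because they are the regions called gained in KO or lost in rescue. Capitals mark matches to the searched motifs described below, within these 201 bases. None of the printed stretches overlaps an annotated exon, and all are read from hg38, plus strand, 5′ to 3′.
PRRX1-1 (chr1:170623265-170623465): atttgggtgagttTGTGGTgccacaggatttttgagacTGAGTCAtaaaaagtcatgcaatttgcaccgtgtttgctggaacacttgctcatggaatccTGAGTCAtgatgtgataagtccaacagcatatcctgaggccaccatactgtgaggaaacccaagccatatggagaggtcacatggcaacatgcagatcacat
PRRX1-3 (chr1:170640645-170640845): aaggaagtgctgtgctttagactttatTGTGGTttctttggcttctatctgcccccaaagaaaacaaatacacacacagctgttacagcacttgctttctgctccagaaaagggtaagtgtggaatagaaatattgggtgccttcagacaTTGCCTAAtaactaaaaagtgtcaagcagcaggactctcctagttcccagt
PRRX1-17 (chr1:170729619-170729819): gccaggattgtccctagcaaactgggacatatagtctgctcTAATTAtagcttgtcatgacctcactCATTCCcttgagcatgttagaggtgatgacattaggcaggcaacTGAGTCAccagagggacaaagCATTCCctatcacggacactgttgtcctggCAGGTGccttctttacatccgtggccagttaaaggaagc
PRRX1-19 (chr1:170734851-170735051): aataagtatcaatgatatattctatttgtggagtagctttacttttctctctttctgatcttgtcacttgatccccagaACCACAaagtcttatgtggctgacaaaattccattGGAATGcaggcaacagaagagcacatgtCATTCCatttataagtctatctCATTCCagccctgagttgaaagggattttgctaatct
PRRX1-20 (chr1:170735688-170735888): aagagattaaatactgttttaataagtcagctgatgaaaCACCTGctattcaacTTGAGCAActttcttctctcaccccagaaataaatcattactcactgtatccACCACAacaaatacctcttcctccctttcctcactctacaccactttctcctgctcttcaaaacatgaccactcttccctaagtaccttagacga

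PRRX1-3 (170640603 to 170641111), in an intron of the lncRNA gene ENSG00000235303, was the strongest of the elements that came and went. KO1 libraries had a −log10 q of 16.3, 16.6 and 18.9 there and KO2 libraries 12.6, 9.48 and 11.7. No WT or rescue library had a peak. In rank the KO peaks lay between the 53.5th and 80.6th percentile of their lists, so they were not at the edge of detection in KO cells. The peak was 344 to 482 bp wide.

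PRRX1-19 (170734885 to 170735057), 70.8 kb after the start in intron 3, was weaker. Its −log10 q was 7.98, 4.11 and 4.62 in KO1 and 10.2, 6.95 and 7.77 in KO2, with no peak in WT or rescue libraries. It is 1 of 5 neighbouring regions in intron 3, PRRX1-16 to PRRX1-20 (170729183 to 170735981), none of which held a peak in any rescue library. Of the 19 PRRX1 regions with at least 2 libraries, 9 held no rescue peak, against 12.6% of such regions in the genome. PRRX1-20 (170735648 to 170735981) was open in WT replicates 1 and 2, with −log10 q of 9.75 and 4.70, and in all KO libraries, with 6.08 to 21.6. PRRX1-17 (170729613 to 170729908) was open in WT replicate 1 at 3.70 and in all KO libraries at 3.64 to 8.25. It lies within 500 bp of the annotated start of transcript PRRX1-204 (170730206), which has no defined coding sequence. That start had a peak within 500 bp in 1 WT, 3 KO1 and 3 KO2 libraries and in no rescue library. PRRX1-16 (170729183 to 170729406) was open in 5 KO libraries at 4.62 to 8.25, and PRRX1-18 (170734474 to 170734640) in 3. The intron 3 elements thus were most complete in KO, partly present in WT and absent from the lists of rescue libraries.

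PRRX1-16, missed in KO2 replicate 2, and PRRX1-17, present in 1 WT library, stood just outside the rule for gained elements, while PRRX1-19 stood just inside it with its weakest peak at 4.11. The lowest −log10 q in any list was 1.3, so a region without a peak was below the caller's threshold and is not shown to be closed.

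Upstream of the start 2 further elements differed in strength. PRRX1-1 (170623250 to 170623507), 40.8 kb upstream in another intron of ENSG00000235303, had no peak in WT and a peak in all KO and rescue libraries. Its −log10 q was 15.4, 11.6 and 12.6 in KO1 and 20.6, 19.99 and 21.9 in KO2. In Rescue1 it was 7.88, 4.65 and 11.7 and in Rescue2 5.63, 4.68 and 2.44. The ranks did not overlap, at 64.7 to 84.9 in KO and 6.02 to 57.3 in rescue. PRRX1-4 (170657351 to 170657805), 6.6 kb upstream, was open in all WT and KO libraries and in 5 rescue libraries, so its occupancy did not change. WT libraries had a −log10 q of 4.61, 3.70 and 4.60 there, KO1 libraries 19.4, 17.7 and 28.02 and KO2 libraries 19.8, 21.4 and 24.4. In Rescue1 it was 6.77 and 6.33, with no peak in replicate 2, and in Rescue2 14.5, 5.64 and 6.28. PRRX1-4 was thus stronger in every KO library than in any WT or rescue library, in −log10 q and in rank (76.6 to 84.1 in KO, at most 25.9 in WT and 69.0 in rescue). These values are relative to the background of each library and were ranked, not tested. How often other regions of the genome separate in strength in these ways was not counted.

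A region with a different pattern was PRRX1-9 (170671374 to 170671628) in intron 1, 7.4 kb after the start. It held a peak in all WT libraries, with −log10 q of 12.0, 6.83 and 5.64, and in all KO1 libraries, with 16.9, 10.5 and 15.6. No KO2, Rescue1 or Rescue2 library held it. It was open in KO1 and not in KO2, so it does not separate by genotype, and the rescue clones matched the KO2 clone.

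**Figure D2:**
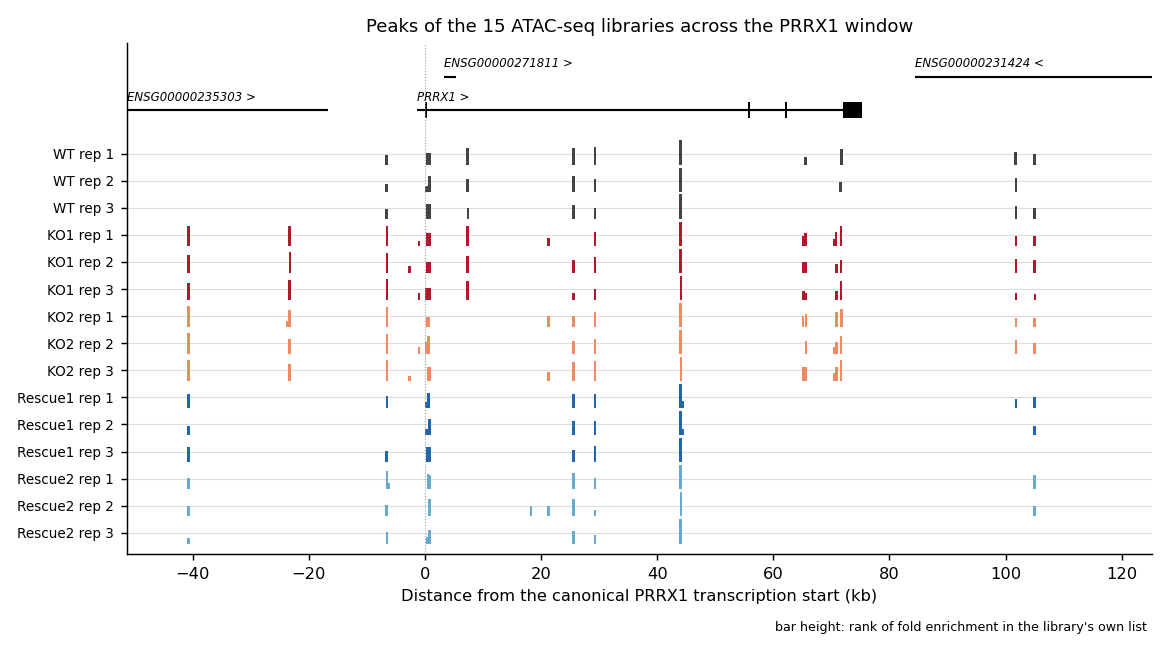
Peaks of the 15 libraries (rows, coloured by line) across the PRRX1 window by distance from the canonical start (horizontal axis, kb), with annotated genes above (exons of the canonical transcript as blocks). Bar height is the rank of fold enrichment in the library's own list, and peaks narrower than 0.45 kb are drawn at 0.45 kb. Bars 23.3 kb upstream occur in the 6 KO rows and in no others, and those 65.2 to 71.7 kb after it are missing from all 6 rescue rows.

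**Figure D3:**
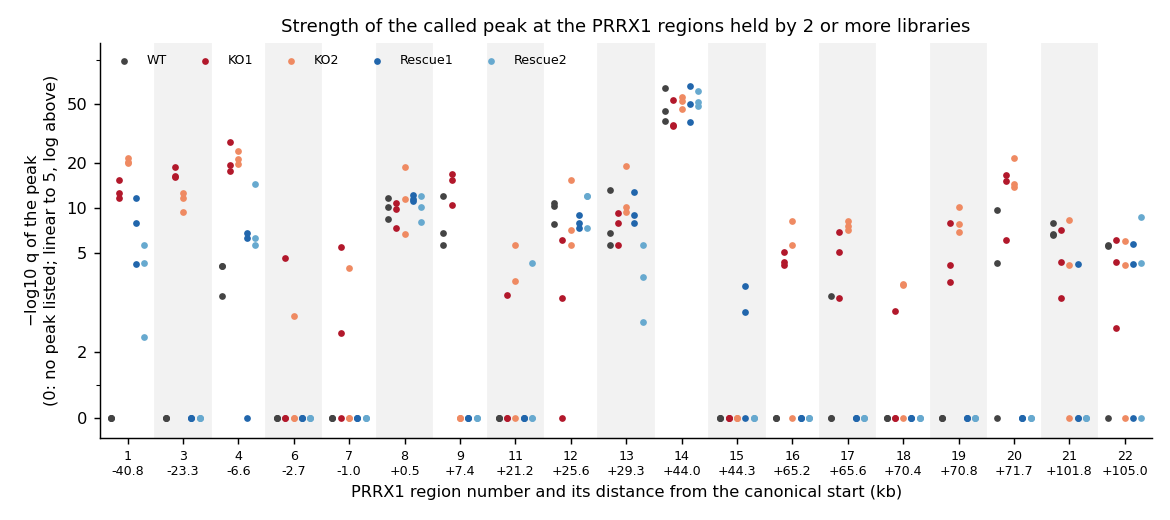
−log10 q of the peak (vertical axis, linear to 5 and logarithmic above, 0 where no peak was listed) at the 19 PRRX1 regions held by at least 2 libraries, by region number and distance from the start. Each point is 1 library. KO libraries are highest at regions 3 and 4, and all groups overlap at regions 8 and 14.

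At PRRX2, 19 of the 37 regions with at least 2 libraries were open in all 15, against 35.6% of such regions in the genome. The promoter was not among them. PRRX2-15 (129665649 to 129665774), in the 5′ UTR within exon 1 at the canonical start, held a peak in WT replicates 2 and 3, KO1 replicate 1 and Rescue1 replicate 1, with −log10 q from 2.16 to 5.20 and at most the 15.6th percentile in rank. Counting any peak within 500 bp, the start was open in 5 of 15 libraries, 2 of WT, 2 of KO1 and 1 of Rescue1. The nearest elements open in every library were PRRX2-13 (129656736 to 129657211), 8.7 kb upstream, and PRRX2-17 (129669156 to 129669684), 3.8 kb into intron 1. PRRX2-17 had a median −log10 q of 32.3 in WT, 41.2 in KO and 47.1 in rescue libraries, with ranges that overlapped between WT and KO and between KO and rescue.

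2 of 37 regions were gained in KO and 2 were lost in KO (4.79% and 2.48% of the genome's regions), and none was lost or gained in rescue. The 2 gained elements, PRRX2-19 (129687489 to 129687702) and PRRX2-20 (129694206 to 129694701), lie in intron 1 and were kept in all 6 rescue libraries. At PRRX2-19 the −log10 q was 9.70, 11.9 and 11.5 in KO1, 11.8, 13.1 and 17.5 in KO2, 13.6, 19.1 and 21.0 in Rescue1 and 31.3, 15.4 and 22.3 in Rescue2, with a median of 20.05 in rescue against 11.9 in KO libraries and overlapping ranges. PRRX2-20 gave 9.07 to 18.1 in KO and 11.9 to 19.5 in rescue libraries. Both had no peak in WT.

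Both elements lost in KO lie in introns of PTGES, the neighbouring gene. PRRX2-33 (129745298 to 129745563) had a −log10 q of 23.8, 19.6 and 14.6 in WT, no peak in KO or Rescue1, and 11.5, 10.3 and 2.44 in Rescue2. The 2 rescue clones thus differed in occupancy at PRRX2-33, 0 of 3 against 3 of 3 libraries, a difference that was not tested. PRRX2-36 (129749978 to 129750349) was open in WT, at 7.5, 4.92 and 10.4, and in no other library. The promoter of PTGES (PRRX2-37) was open in all 15. The sequences of PRRX2-19, gained in KO and kept, and PRRX2-36, lost in KO and not regained, are shown because they run opposite to each other. Neither overlaps an annotated exon.
PRRX2-19 (chr9:129687491-129687691): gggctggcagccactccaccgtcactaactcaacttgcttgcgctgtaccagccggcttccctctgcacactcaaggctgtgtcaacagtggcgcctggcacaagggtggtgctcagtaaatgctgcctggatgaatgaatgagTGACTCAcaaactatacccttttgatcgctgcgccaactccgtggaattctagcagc
PRRX2-36 (chr9:129750142-129750342): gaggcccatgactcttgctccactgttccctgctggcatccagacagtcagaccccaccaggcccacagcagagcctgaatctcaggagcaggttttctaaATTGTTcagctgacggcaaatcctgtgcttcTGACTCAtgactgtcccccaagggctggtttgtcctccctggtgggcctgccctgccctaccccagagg

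**Figure D4:**
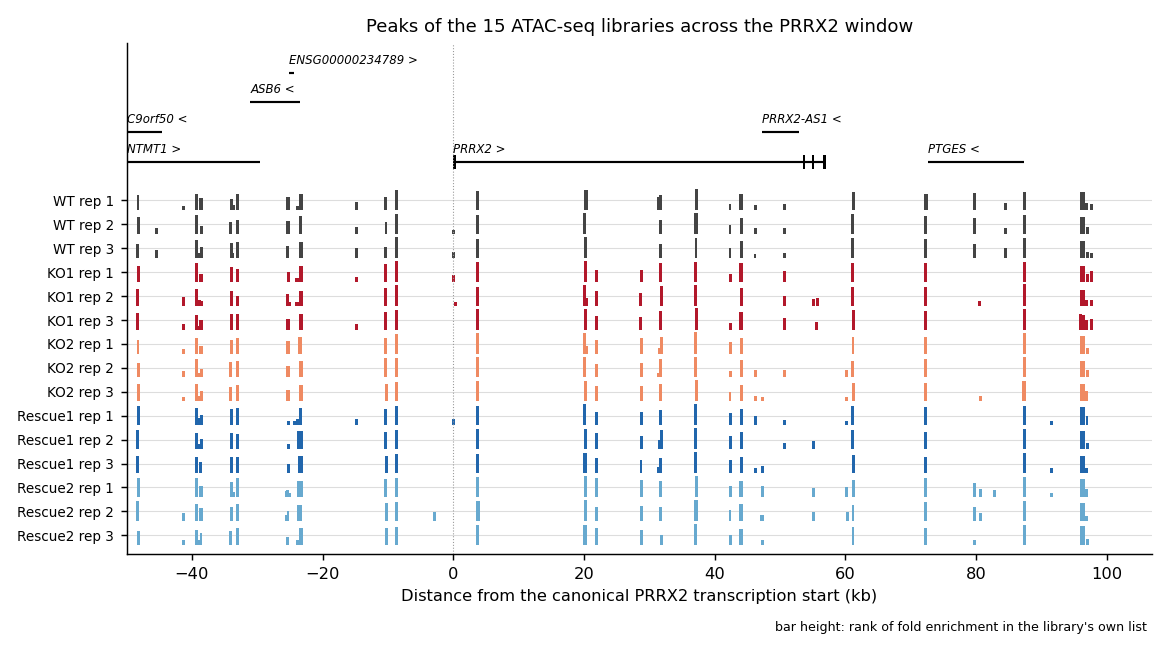
Peaks of the 15 libraries across the PRRX2 window, drawn as for PRRX1 (horizontal axis, kb from the canonical start). Bars of 19 regions run through all rows. Bars 21.9 and 28.8 kb after the start are missing from the 3 WT rows, and the start itself has a bar in 4 or fewer rows for each of its regions.

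11 short motifs were searched on both strands in the 300 bp around each region's centre. They were TAATTA (homeobox), ATGCAAAT (octamer), TGANTCA (AP-1), CAGGTG (E-box bound by ZEB factors), GGAATG (TEAD), TGTTTAC (forkhead), TGTGGT (RUNX), TTGCNNAA (C/EBP), AACAAT (SOX) and the longer NF-kB and HNF1 consensus sites. The homeobox letters can lie within an HNF1 match, and octamer and C/EBP matches can overlap. TAATTA was in 3 of the 19 PRRX1 regions (15.8%), PRRX1-7, PRRX1-15 and PRRX1-17, in none of the 37 PRRX2 regions, and in 6.63% of all 295008 regions. RUNX letters were in 8 PRRX1 regions (42.1%) and 9 PRRX2 regions (24.3%), against 26.5%. C/EBP letters were in 6 PRRX1 regions (31.6%) and 3 PRRX2 regions (8.11%), against 15%. AP-1 letters were in 6 PRRX1 regions (31.6%) and 9 PRRX2 regions (24.3%), against 31.7%. HNF1 letters were in none of them. Counts this small are a description only, and a match is not shown to be bound.

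The printed sequences are centred on the median summit and not on the region's middle, so a match in capitals need not be among those counted. Among the sequences printed above, PRRX1-19 holds 3 matches to the TEAD letters and 1 to RUNX, PRRX1-17 holds the homeobox core with AP-1, E-box and 2 TEAD matches, and PRRX1-20 holds E-box, C/EBP and RUNX matches. PRRX1-3 has RUNX and C/EBP letters. PRRX1-1 has 2 AP-1 matches and 1 RUNX match, PRRX2-19 has 1 AP-1 match, and PRRX2-36 has 1 AP-1 and 1 SOX match. The windows also differed in base composition, with a median GC content of 45.0% at PRRX1, 57.3% at PRRX2 and 46.3% over all regions. Copies elsewhere in the genome can affect where reads are placed, so stretches of 24 bases with another exact copy were counted in these 300 bp windows after the sequences had been seen. They made up 42.6% of PRRX2-20, 18.8% of PRRX1-7 and 15.5% of PRRX1-4. Their share was at most 1.81% in the 7 printed elements, with a median of 0% over 1967 regions sampled across the genome. In 246 of these sampled regions (12.5%), most of the stretches had another copy. The part of such copies in the values at PRRX2-20, PRRX1-7 and PRRX1-4 was not tested.

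The genes whose windows were most like that of PRRX1 over the 15 libraries were FSHR, the receptor of follicle-stimulating hormone (Pearson r = 0.971), NOL4 (0.966), MS4A7 and MS4A14, whose windows cover the same peaks (0.965), and ANO3 (0.962), among 17242 windows on other chromosomes. FSHR had a mean of 681 bases in WT, 4174 in KO and 323 in rescue, and NOL4 2105, 4685 and 2030. For PRRX2 they were STIM1, the calcium sensor of the endoplasmic reticulum (0.964), USE1 (0.961), TMPRSS13 (0.956), NPLOC4 (0.954) and CSRP1 (0.951), among 18446 windows. STIM1 had 13058 bases in WT, 12109 in KO and 13163 in rescue. PRRX1 and PRRX2 themselves had r = -0.219. The points share their libraries and the length of each list, and these correlations are a description.

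Among 15 paired-type homeobox relatives, 14 had a mean of at least 500 bases in their windows. KO lay above WT in all libraries at 3 of them (13.2% of all windows) and below at 1 (11.9%), and rescue lay below KO at 2 (2.55%) and above KO at none (12.8%). The median ratio was 1.08 for KO over WT and 1.08 for rescue over KO, against 0.997 and 1.08 over all windows. OTP, a factor of hypothalamic neurons, was the 1 relative with KO above both WT and rescue (2.04% of all windows), at 995, 1490 and 941 bases in WT, KO and rescue. It was named after its values were seen, and it kept this pattern when scaled to the total length under peaks. On that scale KO lay above WT at 3 relatives and below at 2, rescue lay below KO at 1 and above at none, and the median ratios were 1.002 and 1.04. Among the 4 relatives with the largest difference between KO and WT were DRGX (1049 bases in WT, 1808 in KO, 1399 in rescue), ALX4 (1880, 2490 and 2662, with WT and KO overlapping) and ALX1 (130, 734 and 835).

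All 20 genes of a list of mesenchyme genes, known to be expressed with PRRX1 or named as its targets, passed the same minimum. KO lay above WT at 6 (13.2%) and below at none (11.9%), and rescue lay below KO at none (2.55%) and above at 2 (12.8%), with median ratios of 1.07 and 1.04. CDH11, the cadherin of mesenchymal cells, had 139 to 337 bases under peaks in WT, 3097 to 4246 in KO and 3834 to 5367 in rescue libraries. TWIST2, a bHLH repressor, had means of 5337, 7148 and 7617, and MEOX2, a mesodermal homeobox gene, had 1354, 2306 and 2294. At these 3 genes the KO libraries lay above WT and overlapped with rescue. PDGFRA, the platelet-derived growth factor receptor alpha, had 3447, 4625 and 3968 bases, with rescue from 3445 to 4618 and KO from 4301 to 5194. No gene of this list had the pattern of PRRX1, with all KO libraries above both WT and rescue, on the bases as deposited. When scaled to the total length under peaks, PDGFRA had it, KO lay above WT at 4 genes and below at 1, rescue lay below KO at 3 and above at 3, and the median ratios were 0.985 and 0.994.

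**Figure D5:**
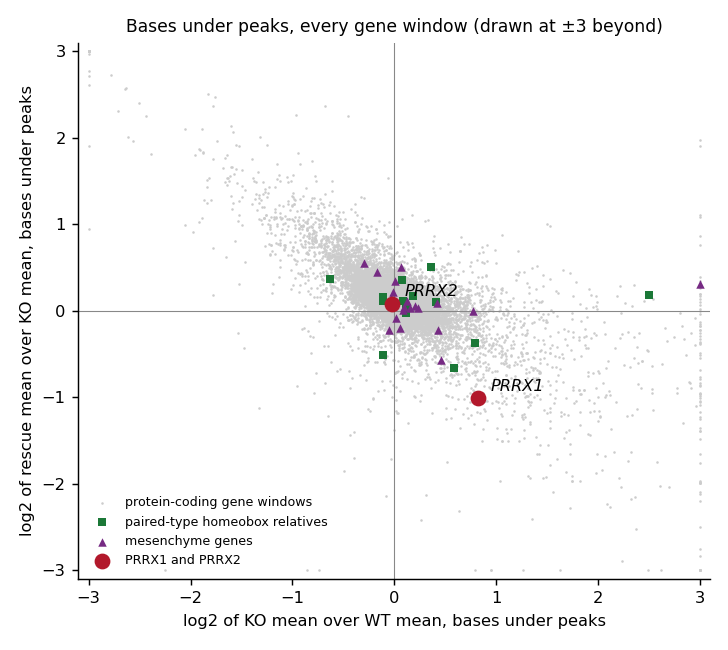
Log2 ratio of mean bases under peaks of KO over WT (horizontal) and of rescue over KO (vertical) for 19207 gene windows (grey), 14 paired-type homeobox relatives (green squares), 20 mesenchyme genes (purple triangles) and the 2 members (red), with values beyond 3 drawn at 3. The axes share the KO libraries, so a high KO mean moves a point right and down at once. PRRX1 lies to the lower right, at ratios of 1.77 and 0.497, and PRRX2 near the centre.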

How the data were processed

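Accessible chromatin was profiled by ATAC-seq in 15 libraries of RPTEC cells, 3 for each of the 5 labelled lines (WT, KO1, KO2, Rescue1, Rescue2). The authors aligned reads to hg38 with BWA (0.7.17 in the submitters' processing notes, another version in the methods) and called peaks in each library with MACS2 2.2.7.1. The deposited lists give each peak's interval, its fold enrichment as a ratio over the library's own background, its −log10 p and its −log10 q (p-value and q-value). The lists hold no read counts, so no interval for counting error was computed, and the mapped read totals that the study tabulates were not used here. Duplicate removal and a control for peak calling are not given in the sources used here. DiffBind results of the authors were not used here.

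No peak lay beyond the end of its chromosome in the hg38 reference, and peaks on 24 chromosomes were kept. Peaks sharing 1 bp were merged, and a library occupied a region with at least 1 bp under a peak. Genes and starts came from GENCODE 44, sequences from hg38. KO pools KO1 and KO2, and rescue pools Rescue1 and Rescue2. Window totals were compared by exact permutation of library labels with Benjamini-Hochberg adjustment over 6 tests. The functions were tested on simulated peak lists. Named genes were the members, all genes of their windows, the 5 genes most alike on other chromosomes, and the 4 of each list with the largest KO minus WT difference. Some genes of the lists and markers are not reported here. Alternatives were a −log10 q of at least 5, the 150000 best peaks by −log10 p in every library, a majority rule (a peak in most libraries of one group and few of the other), an overlap of 50 bp, a merge gap of 100 bp, flanks of 10 and 100 kb, scaling to the total under peaks, each KO clone alone, a replicate block and leaving out each library. The members and lists were chosen with earlier results of these data known. Analyses used Python 3.11.15 with pandas 2.3.3 and numpy 2.4.6.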

Additional observations from a re-analysis of the deposited data

Results flagged for a closer look

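The 6 KO and the 6 rescue libraries were each searched for a value set apart from the remaining 5, in both windows, their 6 parts, the number of peaks and the length under peaks. This was so in 3 of 20 sets, where chance gives about 1 in 20. Among KO libraries, KO2 replicate 2 had 882 bases under peaks upstream of PRRX1, the lowest of the 6, and this value still lies above all WT and rescue libraries. KO2 replicate 3 had 0 bases under peaks downstream of PRRX1, since it held neither PRRX1-21 nor PRRX1-22. KO2 replicate 3 also had the most peaks of the KO libraries, 254650.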

How the results depend on the processing

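Regions were called by all-or-none occupancy, and 104 of the 134 values recomputed with the full set of libraries moved by less than the spread between libraries, stayed within 1.5 times the count or, where tested, kept their direction and their side of the threshold. For the tested values that side was fixed, since none could pass. At PRRX1, the regions lost in rescue fell from 4 to 2 with a −log10 q of at least 5 and to 2 with 150000 peaks in every library, and the regions that were gained and then lost from 2 to 1 under either. By the majority rule the regions gained in KO became 5 and those gained and lost 4. With KO2 alone 1 region was lost in KO. At PRRX2, the regions lost in KO became 1 with a −log10 q of at least 5, 1 with equal lists and 6 by the majority rule. The majority rule also gave 2 lost in rescue and 1 gained and lost, and KO1 alone gave 1 lost in rescue. Leaving out 1 library, the PRRX1 counts ranged from 3 to 4 for gained in KO, 4 to 5 for lost in rescue and 2 to 3 for both, with 0 lost in KO, and the PRRX2 counts stayed at 2 gained and went from 2 to 3 for lost in KO.

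KO minus WT at PRRX1, 1469 bases, was 1053 with equal lists, 847 with a flank of 10 kb and 2161 with one of 100 kb, and 1288 to 1574 without 1 library. Rescue minus KO, -1705, was -1140 and -2124 with these flanks and -1784 to -1648 without 1 library. At PRRX2 KO minus WT, -174.5, was -899 when scaled to the total under peaks, 238 with a flank of 10 kb and -459 to 390 without 1 library, so its direction turned with the shorter flank and without WT replicate 1. Rescue minus KO, 527.5, was 1238 with a flank of 100 kb and 342 to 718 without 1 library. Longer windows hold more bases by construction. The cause of the other changes was not tested.

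No tested difference passed an adjusted p of 0.05 under any alternative that was run (lowest adjusted exact permutation p = 0.143). None could pass with these numbers of libraries, so this does not show that the groups are alike. Directions turned for Rescue2 minus Rescue1 at PRRX1, to -19.3 with a −log10 q of at least 5, -86 with equal lists and -141 when scaled, and for rescue minus WT there to 37.7 with a flank of 100 kb. At PRRX2, KO2 minus KO1 turned to 296 with the stricter q, 244 with equal lists, and 151 and 387 with flanks of 10 and 100 kb. Rescue2 minus Rescue1 turned to -220 and rescue minus WT to -767 when scaled. Without 1 library, KO2 minus KO1 ranged from -398 to -125.5 at PRRX1 and from -318 to 160 at PRRX2, Rescue2 minus Rescue1 from -85.8 to 168 and from 432.5 to 1247, and rescue minus WT from -417 to -131 and from 68.7 to 917.

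With the replicate number as a block the differences were -259, 28.7 and -235 bases at PRRX1 and -5, 727 and 353 at PRRX2. No call changed, since none could pass. Over all gene windows, 8 of 30 pairs of libraries with the same number in different lines had a correlation of deviations over 0.1 (median -0.0587). Among pairs with different numbers it was 23 of 60 (median 0.0446), so sharing a number did not go with a higher correlation. A region below the caller's threshold may still be open, and the lists hold no read counts from which a counting error could be set.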
